A study of Mus musculus with 23 samples.

Results

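The genes described here encode the MHC class II antigen presentation machinery and its main costimulatory partners. They were chosen by name: the 10 members are H2-Aa, H2-Ab1, H2-Eb1, Cd74, Ciita, H2-DMa, H2-DMb1, Cd86, Cd80 and Cd40, out of 35825 genes in the deposited table. All 10 were found in the table by their Ensembl identifiers, and all 10 passed the filter on low values, which left 17102 genes to test. Their values were read in 23 RNA-seq libraries of GFP+ microglia sorted from mouse retinas. Every mouse carried the Cx3cr1-GFP allele, in which GFP is placed in the gene of the fractalkine receptor. The WT groups were CX3CR1-GFP mice with intact Spp1, the gene of osteopontin. The KO groups were Spp1 KO; CX3CR1-GFP animals, homozygous for a global Spp1 deletion. Each genotype was sampled in naïve retinas (4 WT and 4 KO libraries), at 4 weeks after microbead-induced elevation of intraocular pressure (IOP, 4 WT and 4 KO libraries) and at day 7 after optic nerve crush (ONC, 3 WT and 4 KO libraries). Each library came from the pooled retinas of several mice, not from one animal. The labels give no treatment for naïve retinas and no age for any mice.

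MHC class II molecules present peptides from endocytosed proteins to CD4+ T cells. The α and β chains assemble in the endoplasmic reticulum with the invariant chain, Cd74, which blocks the groove until cathepsins degrade it. H2-DM then exchanges the remaining fragment for antigenic peptide, and CD80, CD86 and CD40 on the presenting cell deliver or receive the second signal. Transcription of the chains, of the invariant chain and of H2-DM depends on CIITA, which is recruited to promoters by a complex bound to the X and Y boxes. Resting microglia hold low levels of class II, whereas border-associated macrophages and dendritic cells can hold high levels.

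The X and Y boxes are the shared feature of class II promoters, so 3 members for which RefSeq promoter windows were at hand are shown. The windows of 5 of the 10 members were matched by symbol (H2-Aa, H2-Eb1, H2-DMa, H2-DMb1 and Cd80). H2-Ab1, Cd74, Ciita, Cd86 and Cd40 are named only. The 150 bases before the RefSeq start site are printed 5′ to 3′ on the gene's strand (GRCm38.p6), with capitals marking matches to the core of the X1 box and to GATTGG, the Y box or inverted CCAAT box. Both strands were searched, and in the windows shown no match to one motif overlapped a match to the other. H2-Aa lies at chr17:34287824-34287973 on the minus strand, H2-Eb1 at chr17:34305717-34305866 on the plus strand and H2-DMb1 at chr17:34153041-34153190 on the plus strand.
H2-Aa: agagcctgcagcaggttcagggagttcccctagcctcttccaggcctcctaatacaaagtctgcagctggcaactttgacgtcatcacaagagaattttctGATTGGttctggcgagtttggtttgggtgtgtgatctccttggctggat
H2-Eb1: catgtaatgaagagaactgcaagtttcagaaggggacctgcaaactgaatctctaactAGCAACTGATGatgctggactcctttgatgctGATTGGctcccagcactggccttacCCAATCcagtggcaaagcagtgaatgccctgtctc
H2-DMb1: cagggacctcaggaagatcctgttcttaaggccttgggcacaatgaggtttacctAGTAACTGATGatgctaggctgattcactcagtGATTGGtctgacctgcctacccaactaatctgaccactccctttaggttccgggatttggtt
In H2-Eb1 the X1 match began 92 bases before the start site and was followed by a Y match after 21 bases. In H2-DMb1 the X1 match began 95 bases before the start site and the spacing was 22 bases. H2-Eb1 held a further Y match on the other strand. H2-Aa held a Y match beginning 49 bases before the start and none to the X1 core, which says only that those letters are not in this window. Among 32851 promoter windows of 300 bases in the table, 0.968% held the X1 core, 16.1% held GATTGG and 0.149% held both. Of the other matched members, the Cd80 window held neither motif. The first of the pair of H2-DMa windows held neither, and the second held a Y match 199 bases before its start.

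Libraries differed in ways that touch these genes. Spp1, the deleted gene, ranged from 334 to 22906 normalized counts in WT libraries, but 6 of the 12 KO libraries held 100 or more, namely KO naïve replicate 1 (350), KO IOP replicates 2 and 4 (811 and 761) and KO ONC replicates 1, 2 and 4 (4750, 6811 and 6226). These libraries carry their labels below, and the counts without them are given with the sensitivity results. Cx3cr1 was 952 to 1233 in all 4 KO IOP libraries and 26836 to 54612 in WT IOP. The 8 microglia markers (among them P2ry12, Tmem119, Sall1, Csf1r, Aif1, Siglech and Fcrls) were all above 0 in every library. Their summed count was lowest in KO naïve replicates 1, 2 and 4 and WT IOP replicates 1 and 4 (238544 to 404299, against 528385 to 1042370 in the other libraries). These 5 are called the low-microglia libraries. Reads on genes ranged from 22180480 to 30296094 in the 21 libraries where reads were recovered.

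Per kilobase of exon, the members covered a wide range of levels. The length used was the union of all annotated exons of a gene, so the order of genes at close levels depends on it. H2-Aa had a higher mean count than H2-Eb1 (8780 against 5706) but more exon bases (3798 against 1944). Cd74 had the highest mean over the 23 libraries (24607 normalized counts per kilobase), followed by H2-Ab1 (8440), H2-Eb1 (2935), H2-DMb1 (2489), H2-Aa (2312), H2-DMa (2138) and Cd86 (2014). Cd40 (70.5), Cd80 (57.6) and Ciita (14.9) were far lower. The members also differed in how much they varied between libraries. The ratio of the highest to the lowest library was 18.3 for H2-Ab1, 28.9 for H2-Aa, 31.4 for H2-Eb1, 31.5 for Cd74 and 40.5 for Ciita, whereas it lay between 4.53 and 5.58 for H2-DMa, H2-DMb1, Cd86 and Cd80 and was 14.4 for Cd40.

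**Figure D1:**
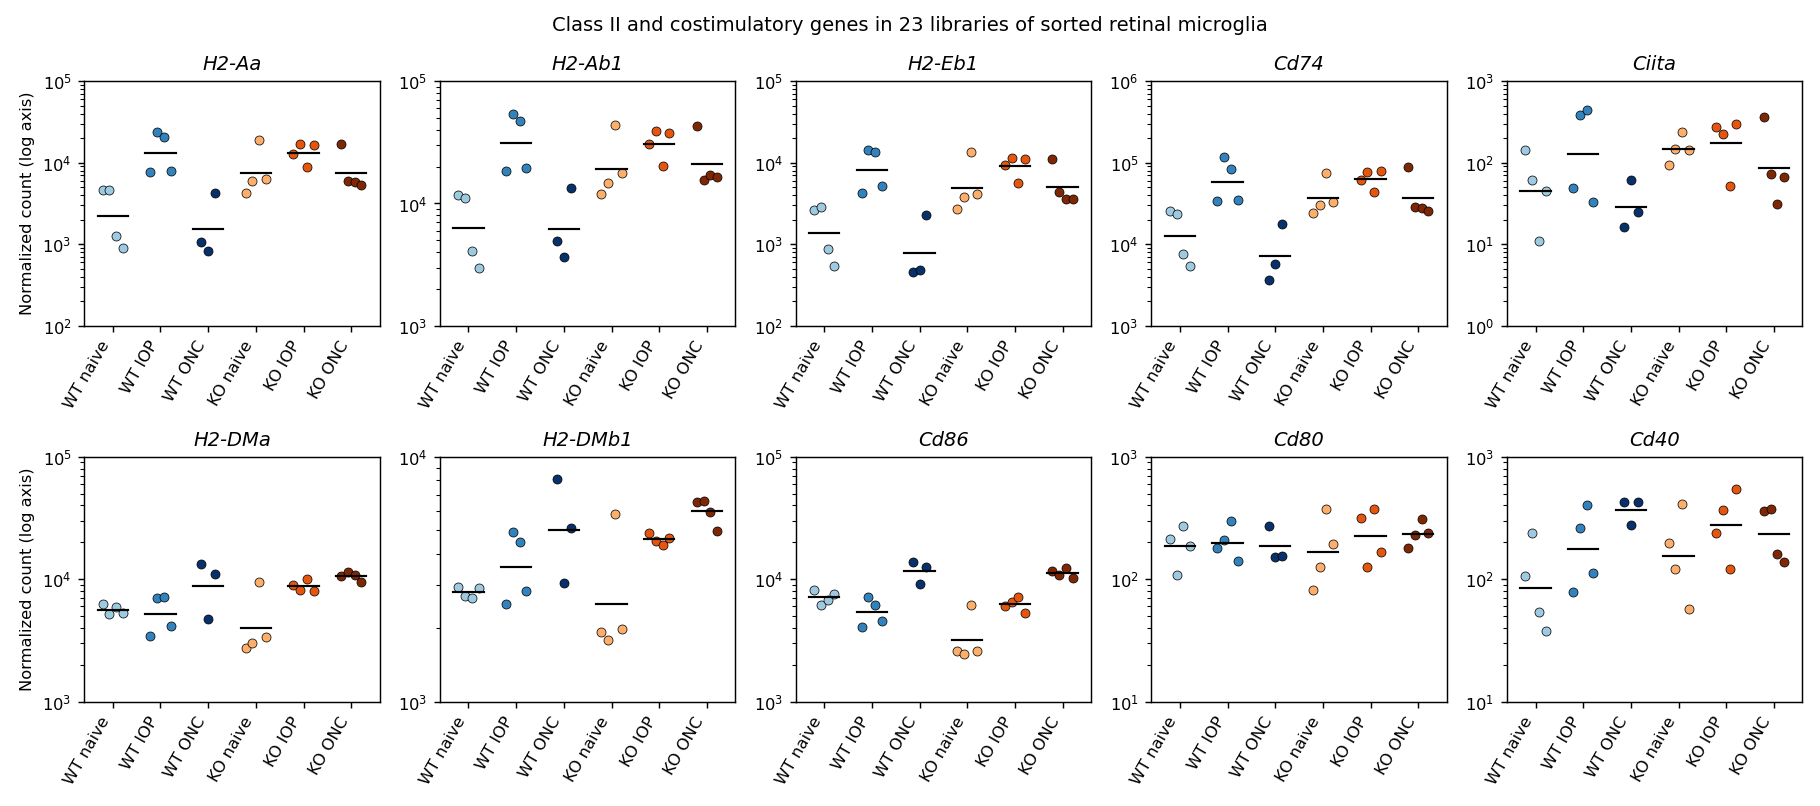
Normalized counts of the 10 members in 23 libraries (log axis, each panel with its own range). Points are libraries in order of replicate number, colours are groups, and bars are the means of the log2 values drawn on the count scale. In the 4 panels at the upper left the WT IOP points lie above all WT naïve and all WT ONC points.

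In WT retinas the antigen-presenting chains and the invariant chain were higher after IOP elevation. H2-Aa, the α chain of I-A (chr17:34282744-34287823), was at 4605, 4572, 1265 and 897 normalized counts in WT naïve libraries and at 7777, 23884, 20576 and 7981 in WT IOP libraries. The groups did not overlap, although WT naïve replicates 3 and 4 were far below replicates 1 and 2. The fold was 5.97 (log2 fold change 2.58 ± 0.60 SE, adjusted p = 0.0293, limma).

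H2-Ab1, the β chain of I-A (chr17:34257689-34269419), was at 11681, 11065, 4089 and 2961 in WT naïve and at 18450, 54140, 47026 and 19576 in WT IOP. Again every IOP library was above every naïve library, and the same 2 IOP libraries, replicates 2 and 3, were the highest. The log2 fold change was 2.30 ± 0.51 SE (adjusted p = 0.0232).

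H2-Eb1, the β chain of I-E (chr17:34305867-34316674), was at 2646, 2863, 876 and 538 in WT naïve and at 4208, 14283, 13344 and 5240 in WT IOP (log2 fold change 2.55 ± 0.61 SE, adjusted p = 0.0347). Cd74 was at 25720, 23336, 7551 and 5410 in WT naïve and at 34226, 116473, 82608 and 34953 in WT IOP (2.22 ± 0.56 SE, adjusted p = 0.0482). For these genes too the groups did not overlap.

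In this comparison 4 of the 10 members were called, all 4 higher, while 1.56% of all genes tested were called and 0.842% were called higher. To be called, a gene had to change by more than 0.58 on the log2 scale in either direction at a Benjamini-Hochberg adjusted p, over all genes, under 0.05. The same 4 members were the ones whose groups did not overlap, a pattern shown by 13.8% of all genes tested in either direction. The median log2 fold change was 1.25 over the members and -0.02 over all genes. The calls were not stable to the loss of single libraries. Without WT naïve replicate 3 or 4, or WT IOP replicate 2 or 3, 0 of 10 members were called, and the adjusted p of H2-Aa was 0.117, 0.133, 0.0891 and 0.065. Over all genes, 110, 123, 215 and 332 were called in those fits, against 267 with all libraries. Without WT IOP replicate 4, 2 members remained called, H2-Eb1 and Cd74 being lost at 0.0616 and 0.0649, and Cd74 was lost at 0.0697 without WT IOP replicate 1. With every single omission the log2 fold change of H2-Aa stayed between 2.15 and 2.93. With edgeR on recovered reads 0 members were called, and with DESeq2 4 were (154 and 580 of all genes).

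Ciita, the class II transactivator (chr16:10480059-10528418), was at 141, 61.3, 11 and 44.6 in WT naïve and at 48.5, 379, 445 and 32.8 in WT IOP. The IOP libraries fell into a high and a low pair, the low pair being replicates 1 and 4, and the groups overlapped (1.47 ± 0.89 SE, adjusted p = 0.501). The peptide exchange factor H2-DM did not follow the chains. H2-DMa had a log2 fold change of -0.12 ± 0.33 SE and H2-DMb1 one of 0.33 ± 0.31 SE. Among the costimulatory genes, Cd86 had a log2 fold change of -0.41 ± 0.23 SE, Cd80 of 0.11 ± 0.43 SE and Cd40 of 1.04 ± 0.64 SE, and the adjusted p of all 5 was 0.473 or more.

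In this comparison 0 of 8 microglia genes were called by limma (median log2 fold change -0.42). Of 9 border macrophage genes (Mrc1, Cd163, Lyve1, Pf4, F13a1, Ms4a7, Stab1, Cbr2 and Folr2), 0 were called by limma, and their median log2 fold change was -0.10. Their summed count was 29607 to 57241 in WT naïve and 27637 to 83825 in WT IOP. WT IOP replicates 1 and 4 were low in microglia markers, and WT IOP libraries held 36958 to 257551 summed counts of 13 lens genes, against 2731 to 5176 in WT naïve. Without the low-microglia libraries the log2 fold changes of the 4 genes were 2.97 to 3.33, with H2-Ab1 alone called (adjusted p = 0.0487). In this comparison the removal takes out WT IOP replicates 1 and 4, the lowest of their group for all 4 genes. The fold changes therefore had to rise, and the rise is no test of the difference. With the microglia list as a covariate 5 members were called, the fifth being H2-DMb1 (0.83, adjusted p = 0.00142). The summed count of 8 monocyte genes was also higher in every WT IOP library (2704.4 to 3276) than in every WT naïve library (1546 to 2547), with a median log2 fold change of 0.89, 6 of 8 genes positive and 0 called by limma. The part of these cells in the class II difference was not tested. In bulk libraries such as these, fewer cells of a type and less RNA per cell cannot be told apart.

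**Figure D2:**
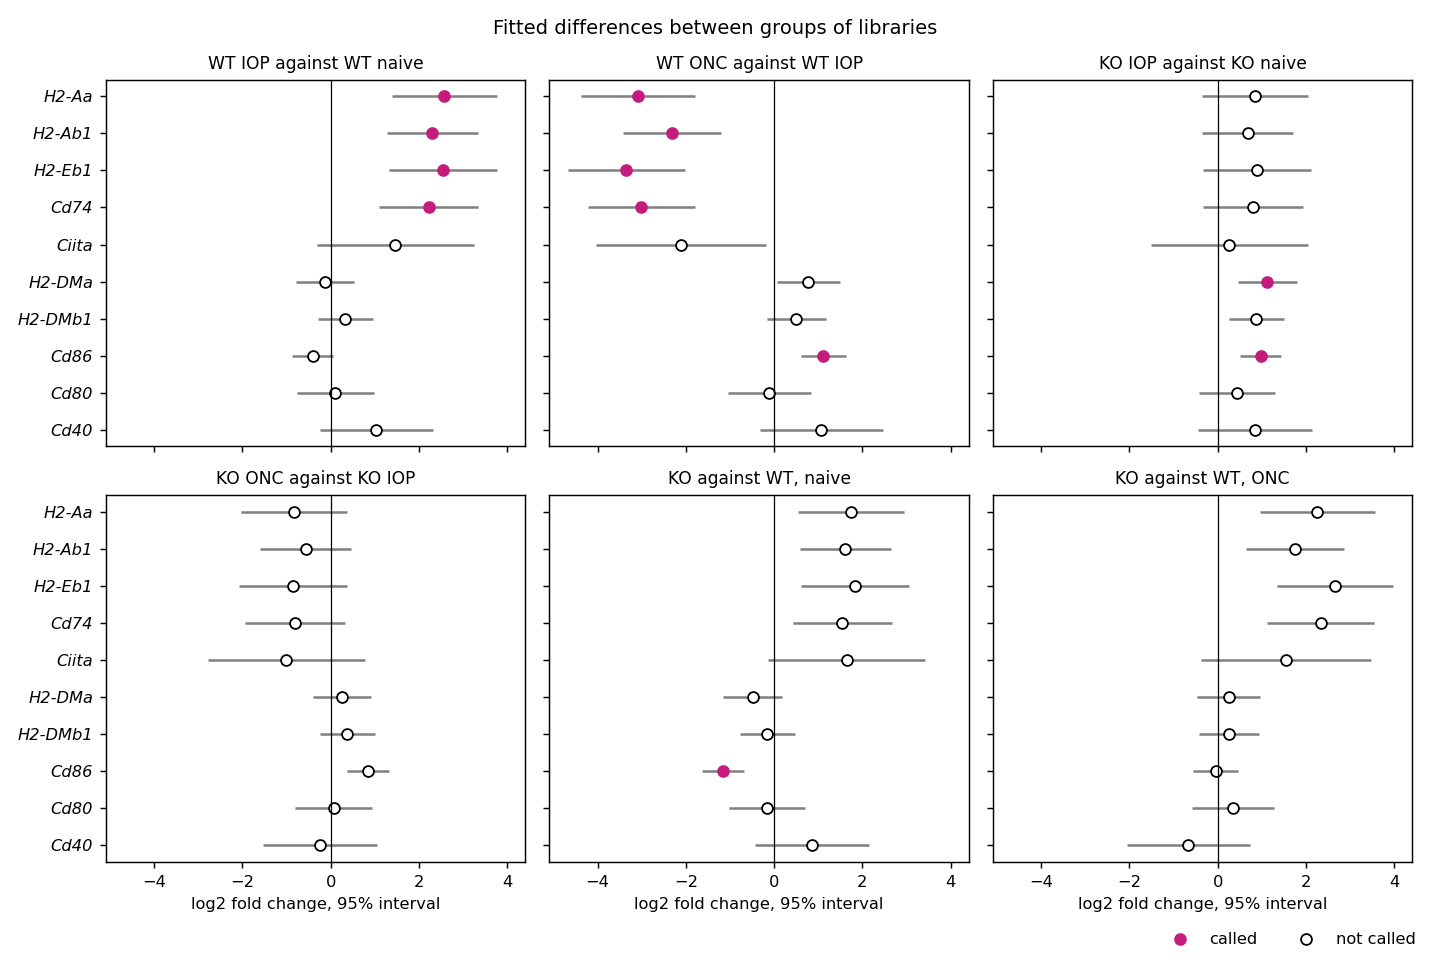
Fitted log2 fold changes of the 10 members in 6 comparisons, with approximate 95% intervals built from the limma SE. Filled points passed both thresholds. The 4 upper genes lie to the right of 0 for WT IOP against WT naïve and to the left for WT ONC against WT IOP, and none of the 4 was called in a comparison of KO groups or of genotypes.

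After ONC the chains were low in WT retinas. H2-Aa was at 1076, 827 and 4262 normalized counts in the 3 WT ONC libraries, H2-Ab1 at 4919, 3666 and 13257, and H2-Eb1 at 455, 480 and 2262. Cd74 was at 3703, 5713 and 17978. Replicate 3 was the highest for all 4 genes, and each ONC group overlapped WT naïve.

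Against WT naïve, none of these 4 differed at the thresholds (log2 fold changes -0.80 to -0.02, adjusted p 0.379 to 0.987). Against WT IOP, all 4 were lower without overlap. The log2 fold change was -3.35 ± 0.66 SE for H2-Eb1 (10.2-fold lower, adjusted p = 0.00199), -3.08 ± 0.65 SE for H2-Aa (8.47-fold lower, adjusted p = 0.00316), -3.01 ± 0.61 SE for Cd74 (8.04-fold lower, adjusted p = 0.00247) and -2.32 ± 0.56 SE for H2-Ab1 (4.99-fold lower, adjusted p = 0.00728). These 4 and Cd86 were the members without overlap, as were 22.8% of all genes. In this comparison 4 members were called lower, against 12% of all genes, and 1 member was called higher, against 9.7%. The 4 lower calls were kept without each of the 7 libraries in turn (largest adjusted p 0.0467, H2-Ab1 without WT ONC replicate 1), and with the compared groups alone H2-Ab1 was lost (0.0653). Ciita was at 16.1, 61.0 and 24.6 in WT ONC and overlapped WT IOP (-2.11 ± 0.96 SE, adjusted p = 0.113).

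Cd86 (chr16:36603869-36666081), a ligand of CD28 and CTLA-4, moved the other way. It was at 4087, 7131, 6181 and 4547 in WT IOP and at 13727, 9084 and 12463 in WT ONC. Every ONC library was above every IOP library, and above every naïve library (6209 to 8086). It rose 2.16-fold against IOP (log2 fold change 1.11 ± 0.25 SE, adjusted p = 0.00531), while the difference from naïve missed the threshold (0.71 ± 0.25 SE, adjusted p = 0.0562). Against IOP the size was lower with the rod photoreceptor list as a covariate (0.51, adjusted p = 0.0996) and with the microglia list (0.56, under the fold threshold), and the call was lost with the compared groups alone (adjusted p = 0.0678).

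Cd40, the receptor for the T cell ligand CD40L (chr2:165055627-165072948), was at 106, 238, 54.1 and 38.1 in WT naïve and at 424, 280 and 428 in WT ONC. These groups did not overlap, and Cd40 was the single member of 10 called against naïve, where 18.1% of all genes were called (log2 fold change 2.11 ± 0.70 SE, adjusted p = 0.0386). WT IOP libraries lay between 78.8 and 405 and overlapped both groups. H2-DMb1 and Cd86 were the other members without overlap between these groups, as were 26.4% of all genes. The Cd40 call was lost without WT naïve replicate 1, 3 or 4 or WT ONC replicate 1 or 3 (adjusted p 0.0575 to 0.135). In those fits 1458 to 2632 of all genes were called, against 3093 with all libraries. It was also lost with the replicate block (adjusted p = 0.0703).

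H2-DMa and H2-DMb1 encode the chains of H2-DM. H2-DMa was at 6266, 5204, 5876 and 5273 in WT naïve and at 13353, 4740 and 11001 in WT ONC. WT ONC replicate 2 stood below the naïve group, and the comparison gave 0.65 ± 0.36 SE (adjusted p = 0.203). H2-DMb1 was at 2950, 2711, 2656 and 2920 in WT naïve and at 8098, 3044 and 5120 in WT ONC, without overlap, at 0.84 ± 0.34 SE (adjusted p = 0.0845). Without WT ONC replicate 2, H2-DMa (1.10, adjusted p = 0.0221), H2-DMb1 (1.2, adjusted p = 0.0134) and Cd86 (0.88, adjusted p = 0.0215) were also called higher than naïve, and H2-DMa was called higher than IOP (1.22, adjusted p = 0.0113). Calls over all 17102 genes rose with this omission too, from 3093 to 5213 against naïve and from 3715 to 5826 against IOP.

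Border macrophage markers fell in WT ONC against both other WT groups, whereas the chains fell against IOP and were not called against naïve. Of the 9 genes, 7 were called lower against naïve (median log2 fold change -3.59) and 7 were called lower against IOP (-3.61), and the other 2 had negative values. Of all genes, 10.5% and 12% were called lower in these comparisons. The summed count was 4724, 5395 and 15819 in WT ONC, with replicate 3, the library with the most class II, again the highest. The microglia list summed to 528385 to 1042370 in WT ONC. The part of the border macrophages in the class II difference was not tested.

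In KO retinas no chain was called between conditions. H2-Aa was at 4306, 5888, 18814 and 6338 in KO naïve, at 12853, 16876, 8728 and 16350 in KO IOP and at 16995, 6025, 5755 and 5301 in KO ONC. Each pair of these groups overlapped, and 1 library stood far above the others in KO naïve (replicate 3) and in KO ONC (replicate 1).

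The same 2 libraries were the highest for the other chains. H2-Ab1 was at 12057, 14801, 43409 and 17595 in KO naïve, at 30677, 38849, 20159 and 37695 in KO IOP and at 43237, 15665, 17108 and 16402 in KO ONC. H2-Eb1 was at 2702, 3790, 13462 and 4110, at 9367, 11302, 5703 and 10970, and at 10990, 4427, 3589 and 3625 in the same order of groups. Cd74 ranged from 23878 to 74163 in KO naïve, from 44116 to 79378 in KO IOP and from 25862 to 87318 in KO ONC.

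None of the 4 was called among KO groups. IOP against naïve gave log2 fold changes of 0.68 to 0.89 (adjusted p 0.362 to 0.409). Their direction turned without the low-microglia libraries, which leaves KO naïve with replicate 3 alone. The log2 fold changes were then -0.50 for H2-Aa, -0.49 for H2-Ab1, -0.58 for H2-Eb1 and -0.22 for Cd74. Their direction also turned with the microglia covariate (-0.40 to -0.08). In KO, ONC against naïve gave 0.00 to 0.12, and ONC against IOP gave -0.85 to -0.56 (adjusted p 0.555 to 0.685). The difference between genotypes in the IOP response was -1.74 ± 0.85 SE for H2-Aa (adjusted p = 0.195). For H2-Ab1 it was -1.62 ± 0.73 SE (adjusted p = 0.161). The approximate 95% interval for H2-Aa was -3.43 to -0.05, but its unadjusted limma p of 0.0523 was not under 0.05. The difference between genotypes in ONC against IOP, a contrast added after the values were seen, was 2.25 ± 0.88 SE for H2-Aa and 2.50 ± 0.90 SE for H2-Eb1 (adjusted p 0.289 and 0.255, with 0.234% of all genes called). At these thresholds the WT response was therefore not shown to differ from that in KO.

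H2-DM and Cd86 were the members called within KO. H2-DMa (chr17:34119541-34139101) was at 2746, 2992, 9417 and 3355 in KO naïve, at 8996, 8217, 10069 and 7967 in KO IOP and at 10626, 11419, 10820 and 9409 in KO ONC. KO naïve replicate 3 lay within the range of the injured groups and the other 3 naïve libraries lay below it. The log2 fold change was 1.13 ± 0.33 SE after IOP elevation (adjusted p = 0.0404) and 1.39 ± 0.33 SE after ONC (adjusted p = 0.00393).

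H2-DMb1 (chr17:34153072-34160230) was at 1916, 1789, 5841 and 1985 in KO naïve and at 4993 to 6577 in KO ONC (1.25 ± 0.31 SE, adjusted p = 0.0056). Cd86 was at 2588, 2459, 6110 and 2615 in KO naïve, at 6093, 6518, 7120 and 5325 in KO IOP and at 11589, 10856, 12358 and 10149 in KO ONC. ONC libraries were above all naïve libraries and above all IOP libraries. Cd86 rose by 0.97 ± 0.24 SE after IOP elevation (adjusted p = 0.0224) and by 1.82 ± 0.24 SE after ONC (adjusted p = 2.07e-05), while ONC against IOP gave 0.85 ± 0.24 SE and missed the threshold (adjusted p = 0.0578).

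Of the 10 members, 2 were called after IOP elevation in KO (7.88% of all genes) and 3 after ONC (23.6%). For ONC against IOP in KO 0 were called by limma, edgeR and DESeq2 alike, with 1 at an unadjusted p under 0.05 (2.41% of all genes called). No member was without overlap in IOP against naïve (0 of 10, and 11.7% of all genes). Groups did not overlap for Cd86 in ONC against naïve (1 of 10 members and 26.5% of all genes) and for Cd86 and H2-DMb1 in ONC against IOP (2 of 10 and 13%). The 3 low KO naïve libraries are the low-microglia libraries of that group. Their microglia markers summed to 238544, 251439 and 285020 against 772530 in replicate 3, and their 10 rod photoreceptor genes to 634953 to 725017 against 286629. Of the 8 microglia genes, 6 were called higher in KO ONC and 4 in KO IOP, each against naïve (12.7% and 5.06% of all genes). Without the low-microglia libraries, which leaves KO naïve with 1 library assumed to vary like the others, Cd86 stood at 0.03 after IOP elevation and at 0.88 after ONC (adjusted p 1 and 0.0965). H2-DMa then stood at -0.10 and 0.16. With the microglia list as a covariate Cd86 after ONC was 0.83 (adjusted p = 0.00165) and H2-DMa and H2-DMb1 were both at -0.10. The IOP calls were lost without any one of KO naïve replicates 1, 2 or 4 or KO IOP replicates 2 or 3 (adjusted p of H2-DMa 0.0697 to 0.142, of Cd86 0.0501 to 0.0977). Without KO IOP replicate 1 or 4 H2-DMa alone was lost (0.0697 and 0.065), and without KO naïve replicate 3 H2-DMb1 was called as well (1.28, adjusted p = 0.0013).

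Between genotypes, the chains were higher in KO than in WT in naïve and crushed retinas, at sizes that missed the adjusted threshold. After ONC every KO library was above every WT library for H2-Aa, H2-Ab1, H2-Eb1 and Cd74. However, Spp1 itself was at 4750, 6811 and 6226 normalized counts in KO ONC replicates 1, 2 and 4. It was at 15.0 in replicate 3, so this genotype comparison rests mostly on KO libraries that hold Spp1. The lack of overlap, with KO above, was seen in 4 of 10 members and in 3.96% of all genes tested (6.32% in either direction). The log2 fold change was 2.26 ± 0.65 SE for H2-Aa (approximate 95% interval 0.97 to 3.55), 1.75 ± 0.56 SE for H2-Ab1, 2.66 ± 0.66 SE for H2-Eb1 and 2.33 ± 0.61 SE for Cd74. Adjusted p was 0.152 to 0.296, and 0 of 10 members were called by limma, edgeR or DESeq2, with 4 at an unadjusted p under 0.05 (0.0877% of all genes called). Without WT ONC replicate 3, H2-Eb1 was called (3.42, adjusted p = 0.041). All 9 border macrophage genes had higher fitted values in KO than in WT here (median log2 fold change 2.18, Lyve1 called), and their summed count was 12821 to 43815 in KO ONC. The part of these cells in the difference was not tested. H2-Aa relative to that sum was 0.233 to 0.413 in KO ONC and 0.153 to 0.269 in WT ONC.

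In naïve retinas all 9 border macrophage genes had lower fitted values in KO than in WT (median -0.75, 0 called by limma), opposite to the chains. H2-Ab1 was higher in every KO library than in every WT library (1.61 ± 0.51 SE, adjusted p = 0.119). H2-Aa, H2-Eb1 and Cd74 overlapped, because the lowest KO library was below or between WT naïve replicates 1 and 2 (1.75 ± 0.60, 1.83 ± 0.61 and 1.54 ± 0.56 SE, adjusted p 0.137 to 0.173). Cd86 was lower in all KO naïve libraries than in all WT naïve libraries, and it was the 1 member called (-1.16 ± 0.24 SE, adjusted p = 0.0347), while 0.409% of all genes were called. H2-Ab1 and Cd86 were the 2 members without overlap, as were 9.6% of all genes. The call was lost on leaving out any of the 8 libraries except KO naïve replicate 3 (adjusted p 0.0638 to 0.159), and without that replicate H2-DMa was called lower too (-0.90, adjusted p = 0.0383). Over all genes, 1623 were called without that replicate and 1 to 26 with the other omissions, against 70 with all libraries. Removal of the low-microglia libraries leaves KO naïve with replicate 3 alone, the highest of its group for Cd86 and for the chains. Cd86 then stood at -0.22, whereas H2-Aa, H2-Ab1, H2-Eb1 and Cd74 stood at 2.57 to 3.29. With the microglia covariate Cd86 was at -0.37 (adjusted p = 0.308), and H2-DMa (0.70, adjusted p = 0.0159) and H2-DMb1 (0.91, adjusted p = 0.0171) were called higher in KO.

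After IOP elevation the genotypes had like means of the chains. KO against WT gave 0.01 for H2-Aa, -0.01 for H2-Ab1, 0.16 for H2-Eb1 and 0.13 for Cd74. The interval for H2-Aa ran from -1.19 to 1.2, so sizeable differences in either direction lay within it. Among the 10 members 0 were called by limma, edgeR and DESeq2, with 1, H2-DMa, at an unadjusted p under 0.05 (0.76 ± 0.33 SE, KO above WT in every library, adjusted p = 0.196). Of all genes 2.11% were called, and 13% did not overlap between these groups.

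The interaction of genotype with IOP elevation was called for Cd86 alone of the members (1.38 ± 0.33 SE, adjusted p = 0.017, with 8.75% of all genes called). The log2 fold change of Cd86 was -0.41 in WT, which was not called, and 0.97 in KO, which was called. Without the low-microglia libraries, which leaves KO naïve with replicate 3 alone, the interaction was 0.13. With the microglia covariate it was 0.18, where H2-DMb1 was the member called (-1.10, adjusted p = 0.0336). Without KO naïve replicate 3, H2-DMa was called as well (1.66, adjusted p = 0.00401), with 3074 of all genes called, against 1496 with all libraries. For the interaction with ONC 0 members were called by limma, edgeR and DESeq2, with 1 at an unadjusted p under 0.05, Cd86 (1.11 ± 0.35 SE, adjusted p = 0.191, 0.0702% of all genes called), which was called without KO naïve replicate 3 (1.43, adjusted p = 0.00488).

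Ranked by mean log2 level, H2-Aa was lowest in WT ONC, followed by WT naïve, KO naïve, KO ONC, WT IOP and KO IOP. Each neighbour in this order overlapped the next. H2-Eb1 and Cd74 had the same order, and in H2-Ab1 KO IOP and WT IOP changed places and the step from WT naïve to KO naïve had no overlap. Cd86 had another order, from KO naïve through WT IOP, KO IOP and WT naïve to KO ONC and WT ONC, and its only step without overlap was from WT naïve to KO ONC. H2-DMa ran from KO naïve, WT IOP and WT naïve to KO IOP, WT ONC and KO ONC, with no overlap between WT naïve and KO IOP. Cd80 (chr16:38455561-38496335), the other ligand of CD28, lay between 81.6 and 377 in all libraries, its groups all overlapped, and it was called in 0 of the 11 comparisons by limma.

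**Figure D3:**
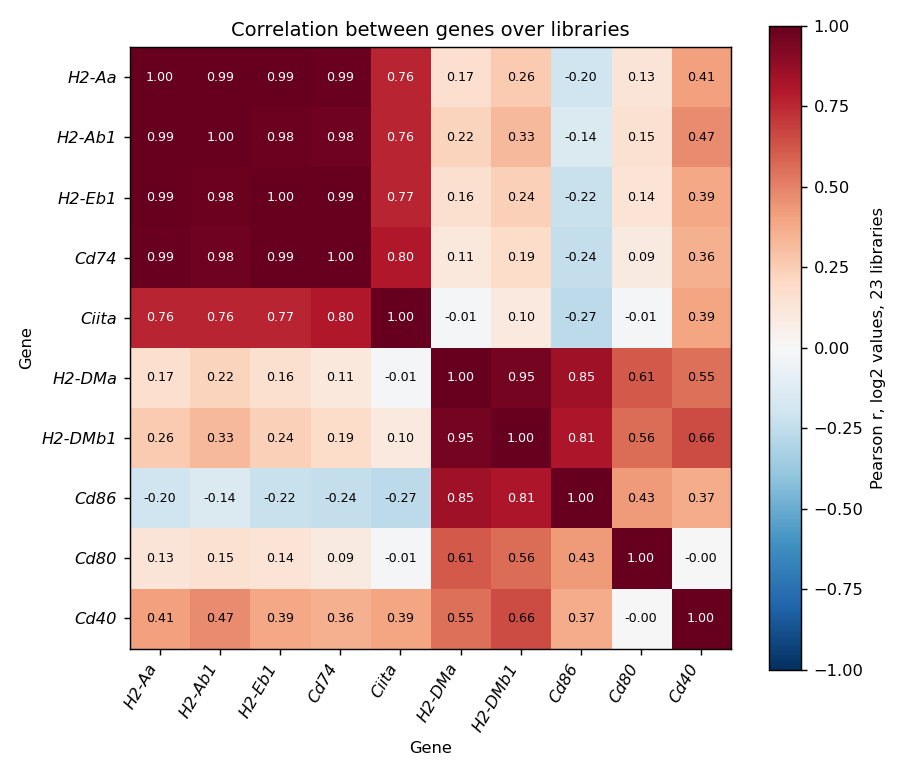
Pearson correlation between the log2 values of each pair of members over 23 libraries. H2-Aa, H2-Ab1, H2-Eb1 and Cd74 form a block at 0.976 to 0.995, H2-DMa, H2-DMb1 and Cd86 a second block at 0.805 to 0.954, and the blocks are correlated with each other at -0.24 to 0.327.

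Over the 23 libraries the members formed 2 blocks. H2-Aa, H2-Ab1, H2-Eb1 and Cd74 were correlated at r = 0.976 to 0.995 (Pearson, log2 values), and Ciita with each of them at 0.762 to 0.797. H2-DMa and H2-DMb1 were correlated at 0.954, and with Cd86 at 0.850 and 0.805. Between the blocks r lay between -0.24 and 0.327. These are descriptions over libraries that share size factors, groups and cell composition. Within the first block the proportions of the chains were not fixed. The ratio of H2-Ab1 to H2-Aa counts was 3.11, 4.43 and 4.57 in WT ONC libraries and 2.27 to 2.45 in WT IOP libraries, and it lay between 2.30 and 3.30 in the other 4 groups.

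The blocks were correlated with different marker lists. Cd86 was correlated with the summed microglia markers at r = 0.897 and with the border macrophage markers at -0.251, whereas the mean of the 4 class II genes was correlated with these at -0.029 and 0.642. When the 4 WT naïve libraries were set aside, a choice made after the values were seen, the class II genes and the border macrophage markers were correlated at 0.963 over 19 libraries. H2-Aa relative to the border macrophage sum was 0.0176 to 0.0824 in WT naïve and 0.153 to 0.433 in those 19. WT naïve libraries held a border macrophage signal like that of WT IOP with less class II per unit of it. Relative to the microglia sum, H2-Aa was at 1.30 to 8.12 per 1000 counts in WT naïve, 19.7 to 37.8 in WT IOP and 1.03 to 4.52 in WT ONC, and at 18.1 to 24.4, 10.3 to 26.4 and 6.85 to 21.6 in KO naïve, KO IOP and KO ONC. On this scale WT naïve and KO naïve did not overlap, and neither did WT ONC and KO ONC. Cd86 lay between 7.78 and 17.2 per 1000 over all libraries, and its ONC groups stood apart. In WT it was at 9.57 to 11.03 in naïve, 9.45 to 11.39 in IOP and 13.17 to 17.19 in ONC libraries. In KO it was at 7.91 to 10.85, 7.78 to 10.21 and 12.35 to 16.02 in the same order. In each genotype every ONC library was above every naïve and every IOP library on this scale.

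**Figure D4:**
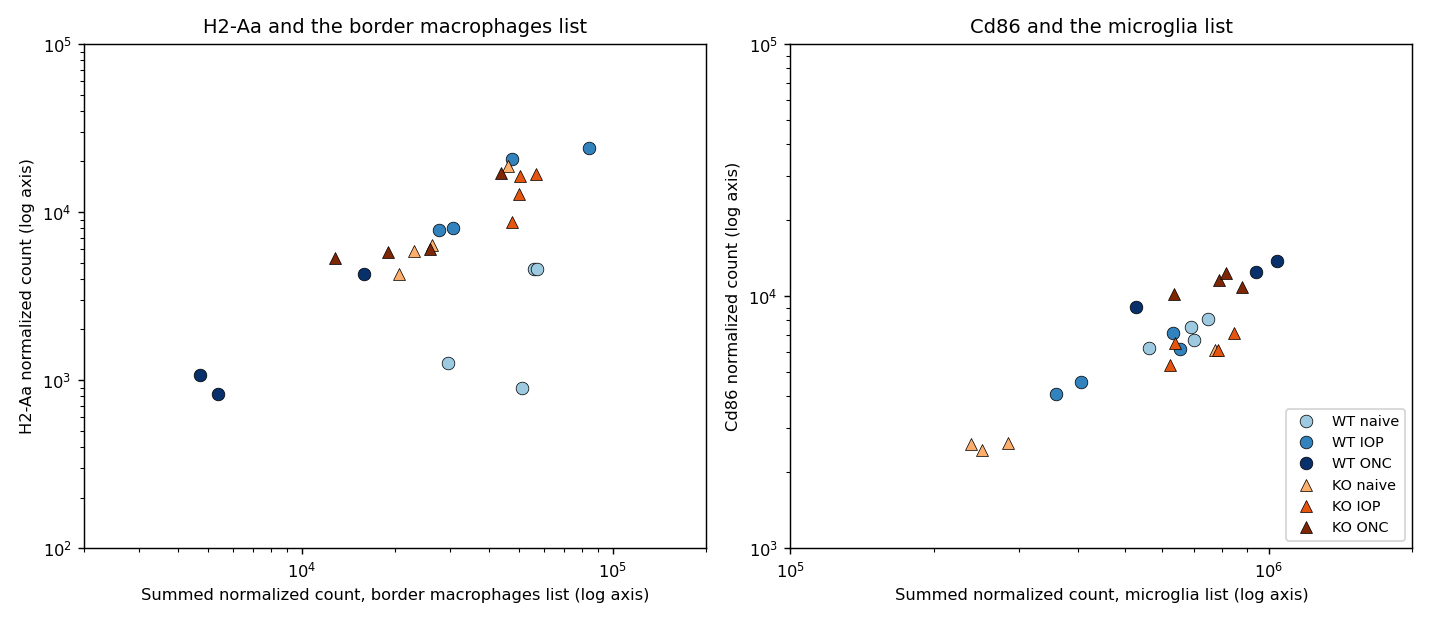
H2-Aa against the summed counts of 9 border macrophage genes (left) and Cd86 against those of 8 microglia genes (right), in normalized counts on log axes, with circles for WT and triangles for KO libraries. At the left the 4 WT naïve libraries have less H2-Aa for their border macrophage sum than the other 19 (ratio 0.0176 to 0.0824 against 0.153 to 0.433), and at the right the 3 KO naïve libraries at the lower left are replicates 1, 2 and 4.

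Markers of other antigen-presenting and immune cells were measured in the same libraries. Of 8 dendritic cell genes, Flt3 did not exceed 119, Clec9a 32.2 and Ccr7 26.5 in any library, and Clec9a was at 0 in 10 libraries. The sum of that list was carried by Itgax, which microglia can also express (145 to 7331), and was 502.9 to 1459 in WT IOP and 4914 to 7251 in WT ONC, the opposite order to the chains. Of 5 B cell genes, Cd79a was at 0 in 6 libraries and did not exceed 18.3, whereas Ighm lay between 4623 and 22814. The summed B cell list, mostly Ighm, was correlated with Cd86 at 0.942 and with the class II genes at -0.031. The 9 T and NK cell genes summed to 65.4 to 518, with Cd3e at 57.7 or less, and their sum was 135.8 to 518 in WT ONC. The 8 monocyte genes summed to 1422 to 6153, and their sum was correlated with the class II genes at 0.149. Their group median was highest in KO IOP (4154), where the libraries ranged from 1422 to 6153. KO IOP had the highest mean log2 value of H2-Aa, H2-Eb1 and Cd74, whereas the mean counts of H2-Aa and Cd74 were highest in WT IOP.

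Regulators of class II transcription, namely interferon-γ signalling genes and the factors that bind the X and Y boxes, were measured for 14 genes. Irf8, a macrophage transcription factor, rose in WT ONC against naïve (0.99, adjusted p = 0.0359). In WT IOP against WT naïve, where the chains were higher, 1 of the 14 regulators was called higher and 0 lower (0.842% of all genes called higher). The X box subunit Rfx5 was 1.26 higher in WT ONC than in WT IOP (adjusted p = 0.0121). There 5 of the 14 regulators were called higher and 0 lower (9.7% of all genes called higher), while the chains were lower. In KO IOP against WT IOP Rfx5 was the 1 regulator called (1.16, adjusted p = 0.0498). Ifng did not exceed 10.7 in any library and was at 0 in 5.

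Genes that process the invariant chain and load peptide had a summed level correlated with Cd86 at 0.945 and with the chains at -0.098 over the 23 libraries. Of 12 tested, 0 were called by limma in WT IOP against naïve (median -0.36), 4 were called higher in WT ONC against naïve, 8 in KO IOP and 9 in KO ONC against naïve, and 0 lower. Of all genes, 7.55%, 5.06% and 12.7% were called higher in these last 3 comparisons. The cathepsins Ctsb (1.53, adjusted p = 0.000476) and Ctsd (1.43, adjusted p = 0.00868) and Ctsl (0.90, adjusted p = 0.011) rose in WT ONC, as did March8, a ubiquitin ligase that removes class II from the surface in some cells (2.12, adjusted p = 0.00966). Against WT IOP, 7 rose in WT ONC and March1, another such ligase, fell (-0.64, adjusted p = 0.0385). Of all genes, 9.7% were called higher and 12% lower there. H2-Oa, a subunit of the H2-DM inhibitor H2-O, was 1.80 higher in KO IOP and 2.45 higher in KO ONC than in KO naïve (adjusted p 0.00317 and 7.14e-06), and 1.76 lower in KO naïve than in WT naïve (adjusted p = 0.0136). Without the low-microglia libraries 0 of 12 were called in KO IOP and 4 in KO ONC against naïve, and 0 of the 3 H2-DM and Cd86 calls in KO ONC were kept.

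Of 10 other costimulation and adhesion genes tested, 0 were called by limma in WT IOP against naïve. In WT ONC against naïve Lgals9 (1.57, adjusted p = 0.0034) and Cd48 (1.10, adjusted p = 0.0201) rose and Tnfsf9, the ligand of 4-1BB, fell (-1.31, adjusted p = 0.0245). In KO, 5 of the 10 were called higher after IOP elevation, and 6 higher and 1 lower after ONC, each against naïve. Of all genes, 5.06% were called higher after IOP elevation, and 12.7% higher and 11% lower after ONC. Icam1, the adhesion ligand of LFA-1, was 1.11 higher in WT ONC than in WT IOP (adjusted p = 0.0126). Cd4 and Cd28 fell in WT ONC against naïve (-3.10 and -4.28, adjusted p 0.00772 and 0.000571), whereas Cd3e was nowhere above 57.7. The T cell genes Ctla4 and Cd40lg did not exceed 7.66 and 2.68 in any library, which is at or near the 2.41 to 4.03 normalized counts that 3 reads make.

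The genes most like the 4 class II genes over the 23 libraries were Clec4b1 (r = 0.915), Klra2 (0.867), Stap1 (0.825), Tgfbi (0.794), Gm49500 (0.791) and Aoah (0.775). These are the 6 highest Pearson correlations with the mean log2 value of H2-Aa, H2-Ab1, H2-Eb1 and Cd74 among the tested genes that are not members, given with no p. Klra2, a lectin-like receptor, ranged from 34.4 to 113 in WT naïve, 213 to 441 in WT IOP and 13.4 to 130 in WT ONC. Clec4b1, a C-type lectin receptor, ranged from 3.71 to 28.4, 20.2 to 161 and 0 to 24.6 in the same groups. The like order of groups in both genes is what chose them.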

How the data were processed

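RNA-seq of GFP+ retinal microglia was analysed in 23 libraries of 6 groups. Retinas were pooled before sorting. The submitters' processing notes name STAR, DESeq2 and GRCm38, while the study's methods name salmon. The deposited values are normalized counts, a signal in which the authors divided gene counts by a size factor per library. In 21 libraries all values were whole reads (within 0.01) divided by 1 factor (22180480 to 30296094 reads). In KO IOP replicates 2 and 4 the values were likewise whole multiples, of 1.0046 and 1.0097, but they were not accepted as recovered reads. For this reason edgeR and DESeq2 used 2 KO IOP libraries. The level that 3 reads make covers counting error only.

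Values were analysed as log2(normalized count + 1), so fold changes of low genes are understated, with limma 3.58.1 in R 4.3.3 (6 group means, all 23 libraries, eBayes with trend). A gene was kept where 3 or more libraries held 10 or more normalized counts (17102 genes). The fit gave 11 comparisons, each with p-values adjusted over all genes kept. Replicate labels do not say whether pools came from separate experiments, so p-values measure the spread between these pools. Correlations between replicates of a group were 0.953 to 0.984 and 0 pairs of libraries were identical. The fitting was tested on simulated data. Alternatives were other pseudocounts, filters and normalizations, a replicate block, covariates, the compared groups alone, edgeR 4.0.16, DESeq2 1.42.0 and omission of each library. The removal of the low-microglia libraries and the microglia covariate were added after the data were seen.

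Members and lists were chosen with earlier results of these data known. All 10 members are named, with list genes named where called (at most 5 per comparison), and the 6 genes most correlated with the class II mean. Other list genes and all marker genes given with values were named after their values were seen. Positions and exon lengths are those of GENCODE M21 (GRCm38). H2-DMb1 has a close paralog, H2-DMb2, between which reads can be split. The exons of H2-DMa overlap those of Brd2 on the other strand over 10.4% of their length, and those of Ciita overlap Dexi over 3.45%. Rfxap, Ifi30, Xcr1 and Lim2 were not analysed here. Some genes of the lists are not reported here by name.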

Additional observations from a re-analysis of the deposited data

Results flagged for a closer look

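Within groups of 4, a library stood apart from the other 3 in 10 of 50 tests of a member in a group (Dixon's criterion at 95%, on unlogged counts). Chance meets it in about 1 in 20 single tests. The members are correlated, so the 50 tests are not independent and their number is not to be set against that rate. All 10 flagged values belong to 2 libraries. KO naïve replicate 3 was the highest of its group in H2-Aa (18814 normalized counts, others 4306 to 6338), H2-Eb1 (13462), H2-DMa (9417), H2-DMb1 (5841) and Cd86 (6110). It is the KO naïve library that is not low in microglia markers. KO ONC replicate 1 was the highest of its group in H2-Aa (16995, others 5301 to 6025), H2-Ab1 (43237), H2-Eb1 (10990), Cd74 (87318) and Ciita (365), and it also held the most border macrophage counts of its group (43815 against 12821 to 25864). The part of these cells in its values was not tested.

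The Cd86 response to IOP elevation differed between genotypes (difference of log2 fold changes 1.38, limma, adjusted p = 0.017). Microglia markers moved with it, 5 of 8 being called higher in the same interaction (4.85% of all genes). Without the low-microglia libraries, which leaves KO naïve with replicate 3 alone, the difference for Cd86 was 0.13.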

How the results depend on the processing

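The number of members called in a comparison moved with the processing as follows. For WT IOP against WT naïve (4 called) it was 1 with the compared groups alone, 0 with edgeR, 0 without the KO libraries with Spp1 at 100 or more and 1 without the low-microglia libraries. For WT ONC against WT naïve (1) it was 0 with quantile normalization, no filter, the rod covariate, the compared groups alone, edgeR or without the Spp1-positive KO libraries, 2 with a mean of at least 50 and 3 without the low-microglia libraries. For WT ONC against WT IOP (5) it was 3 with the compared groups alone. For KO IOP against KO naïve (2) it was 1 with no filter and 0 with either covariate, the compared groups alone, edgeR, DESeq2 or either removal of libraries. For KO ONC against KO naïve (3) it was 1 with either covariate and 0 with either removal. Without the Spp1-positive libraries, which leaves KO ONC with 1 library assumed to vary like the others, the log2 fold changes there were 1.86 for Cd86, 1.25 for H2-DMa and 1.11 for H2-DMb1. For KO ONC against KO IOP (0) it was 1 with a mean of at least 50, either covariate, the compared groups alone or without the low-microglia libraries. For KO against WT in naïve retinas (1) it was 2 with quantile normalization or the microglia covariate and 0 with the compared groups alone, edgeR or either removal. For the genotype by IOP interaction (1) it was 0 with the rod covariate, edgeR or either removal. Pseudocounts of 0.5 and 5 and upper-quartile rescaling moved no count by more than 1.5 times. Calls over all 17102 genes moved as well. For KO IOP against naïve 1347 became 10 with the rod covariate, 4 with the microglia covariate and 5 with the compared groups alone. There were 17 with edgeR and 985 with DESeq2. For KO ONC against naïve 4043 fell to 596 with the rod covariate and 345 with the microglia covariate. For WT ONC against IOP 3715 fell to 479 with the compared groups alone. For WT IOP against naïve 267 rose to 520 there and fell to 154 with edgeR.

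Leaving out single libraries gave 0 to 4 members called for WT IOP against naïve, 0 to 4 for WT ONC against naïve, 5 to 6 for WT ONC against IOP, 0 to 3 for KO IOP against naïve, 3 for KO ONC against naïve, 0 for KO ONC against IOP, 0 to 2 for KO against WT naïve, 0 for KO against WT IOP, 0 to 1 for KO against WT ONC, 1 to 2 for the interaction with IOP and 0 to 1 for that with ONC. Of the members called, those reversed in sign were H2-DMa after IOP elevation in KO (-0.10 without the low-microglia libraries, -0.14 with the microglia covariate), and H2-DMa and H2-DMb1 after ONC in KO (both -0.10 with the microglia covariate). Values that were not called also changed sign, among them those of the 4 chains after IOP elevation in KO. The cause was not tested.

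Replicate numbers were not taken to pair the samples. Of 55 same-number pairs, 10 had deviations correlated above 0.1 (range -0.253 to 0.23). Pairs of unlike number were not compared, so these values do not settle whether the numbers pair samples. With the replicate block the count was 3 for WT IOP against naïve (Cd74 lost) and 0 for WT ONC against naïve (Cd40 lost), and the other 9 counts were 5, 2, 3, 0, 1, 0, 0, 1 and 0, equal to those without it. Depth limits Ciita, Cd80 and Cd40 most, at 11 to 547 normalized counts, where 3 reads make 2.41 to 4.03.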

Other observations

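The ratio of Cd74 to H2-Aa counts ranged from 3.44 to 6.91 over all libraries, with both extremes in WT ONC, while H2-Aa itself varied 28.9-fold. The ratio of H2-Eb1 to H2-Aa counts was 0.423 to 0.58 in WT ONC and 0.541 to 0.735 elsewhere. H2-DMa relative to the microglia markers ranged from 7.65 to 9.25 per 1000 counts in WT naïve and from 11.5 to 12.2 in KO naïve, so on this scale KO naïve was above WT naïve in every library, opposite in sign to the fitted log2 fold change of H2-DMa (-0.49). H2-Eb2, a further β chain gene, was at 0 in 18 libraries and did not exceed 5.32, and the costimulatory ligands Tnfsf4 and Pdcd1lg2 did not exceed 8.06 and 12.9.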
